A study of Anopheles gambiae with 104 samples.

Results

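The heads and the bodies of the same mosquitoes were compared while both free-ran in constant dark. Members were chosen by label: every array labelled constant dark, with the head and body arrays of a circadian time set against each other, which took 52 arrays and left the other 52 arrays of the series, all under a light cycle. The animals were mated female Anopheles gambiae, the African malaria mosquito, of the Pimperena strain (S form). They had taken no blood and were 7 to 9 days old when the experiment began, and this holds for heads and bodies alike. Each time point was a pool of 20 to 30 mosquitoes, whose heads, with mouthparts and antennae, were cut from the bodies, with the remaining appendages, before RNA was extracted. Heads gave 26 arrays and bodies 26 arrays, 2 at each of 13 times every 4 h between CT0 and CT48. CT is circadian time, counted from the subjective dawn that the earlier light cycle would have given. The light cycle mosquitoes, of the same strain, had full light for 11 h a day, with dawn and dusk ramps of 1 h each, and serve here only to show where the dark comparison differs. No label says whether the 2 arrays of a time came from separate pools, so each pair of arrays was averaged and p-values measure the spread between time points.

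Insect circadian clocks are feedback loops in which clock proteins repress their own transcription, so that transcripts of clock and clock-controlled genes rise and fall daily without any light signal. Such clocks run in pacemaker neurons and eyes of the head and, separately, in many tissues of the body, such as the gut, fat body and Malpighian tubules. Constant dark removes the light cue that resets them each day, and each clock then drifts at its own period.

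The values are GCRMA values, background-corrected and normalized probe intensities on a log2 scale. A probe set is a group of probes summarized as 1 value. It was kept where its mean in a tissue exceeded the 95th percentile of the array's probe sets for the malaria parasite Plasmodium falciparum. That percentile stands for the level with no matching RNA. The filter left 7188 probe sets in heads (above 3.75), 7325 in bodies (above 3.78), 6075 in both and 8438 in either, of 16884 for Anopheles. Below those cutoffs values have no order. The 2 arrays of a time correlated at 0.989 to 0.995 in heads and at 0.988 to 0.994 in bodies, and no 2 arrays were identical. The number of arrays limits the precision. None of the probe set names could be paired with a gene through the gene table used here, so probe sets are called by their identifiers, which carry a chromosome arm, and the marker genes of heads and bodies could not be looked up.

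The tissue labels could be looked at only through the arrays themselves, and only for mix-ups at a few times. The probe sets below were chosen on these same arrays by a low median in the other tissue. Low values at most times therefore follow from the choice. Of 27 probe sets above 10 in heads whose body median lay under the cutoff, 2 exceeded 5 in bodies at CT0, 1 did at CT28 and none did at the other 11 times. Of 95 such probe sets abundant in bodies, 2 exceeded 5 in heads at CT16, 1 at CT28, 2 at CT40 and 1 at CT48. Across probe sets, head and body values correlated at 0.621 at CT4, the lowest time, and at 0.646 at CT48, the highest.

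The gap between 3′ and 5′ signal differed by tissue for actin and for a bacterial control RNA, dap. The probe sets for actin, a cytoskeletal protein, showed a 3′ signal above the 5′ signal by 3.29 ± 0.63 log2 units in heads and by 2.72 ± 0.36 in bodies (SD, n = 13), higher in heads at 12 of 13 times (exact sign-flip test, two-sided, p = 0.00366, adjusted p = 0.00549 over 9 control measures). The same measure on dap, which is not mosquito mRNA, was 2.73 ± 0.23 in heads and 2.19 ± 0.32 in bodies, and it was higher in heads at 12 of 13 times (exact sign-flip test, p = 0.000488, adjusted p = 0.0011). For Gapdh, a glycolytic enzyme, it was 4.40 ± 0.97 in heads and 4.34 ± 0.58 in bodies (exact p = 0.848). The CT44 heads stood apart, with 7.83 and 7.24 on the 2 arrays, against 5.24 and 3.94 in bodies at that time. Without CT44, calls numbered 7779 for level, 334 for the rhythm difference, 623 for rhythm in heads and 422 in bodies, against 7803, 344, 641 and 490 with it. The part the 3′ to 5′ measures play in the results was not tested.

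Most probe sets differed in level between head and body. Of 8438 probe sets, 7803 (92.5%) passed limma's moderated test of the head minus body difference, adjusted over all probe sets kept at a Benjamini-Hochberg threshold of 0.05. Those higher in heads numbered 2698 (32%) and those lower 5105 (60.5%). At least 1.5-fold and past the test were 2044 higher (24.2%) and 4066 lower (48.2%), and at least 4-fold were 838 higher (9.93%) and 1440 lower (17.1%). The same test passed 45.2% of the 4502 P. falciparum probe sets, used here as the level with no matching RNA, but 1.04% of them passed it with a difference of at least 1.5-fold. The sign was the same at all 13 times for 6526 probe sets (77.3%). In bulk tissue, fewer cells of a type and less RNA per cell cannot be told apart.

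The split depends on scaling. In the deposited values, the middle probe set had a head minus body difference of -0.52 (quartiles -1.52 and 0.54). Quantile normalization moved that median by 0.56 log2 units to 0.03, after which 3931 probe sets were higher and 3769 lower, so that the higher share of calls was 51.1% against 34.6% as deposited. The sign of 723 called probe sets changed. The counts at least 4-fold then stood at 1061 higher and 1051 lower. The direction of most control probe sets turned with the scaling too, that of the 5′ actin probe set not: it averaged 9.45 ± 0.55 in heads and 10.42 ± 0.38 in bodies as deposited (SD, n = 13), and 9.86 in heads and 10.001 in bodies after quantile normalization. As deposited, the middle actin probe set averaged 11.22 ± 0.10 in heads and 11.83 ± 0.17 in bodies (SD, n = 13) and was lower in heads at all 13 times (exact sign-flip test, p = 0.000244, adjusted p = 0.000732, the smallest p 13 pairs allow). After quantile normalization it averaged 11.65 in heads and 11.39 in bodies, and was higher in heads at all 13 times. Gapdh at its 3′ end averaged 12.60 ± 0.14 in heads and 12.89 ± 0.09 in bodies (SD, n = 13), and was higher in heads at 1 of 13 times (exact p = 0.00146, adjusted p = 0.00264). After quantile normalization it was 13.002 in heads and 12.46 in bodies, higher in heads at all 13 times.

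**Figure D1:**
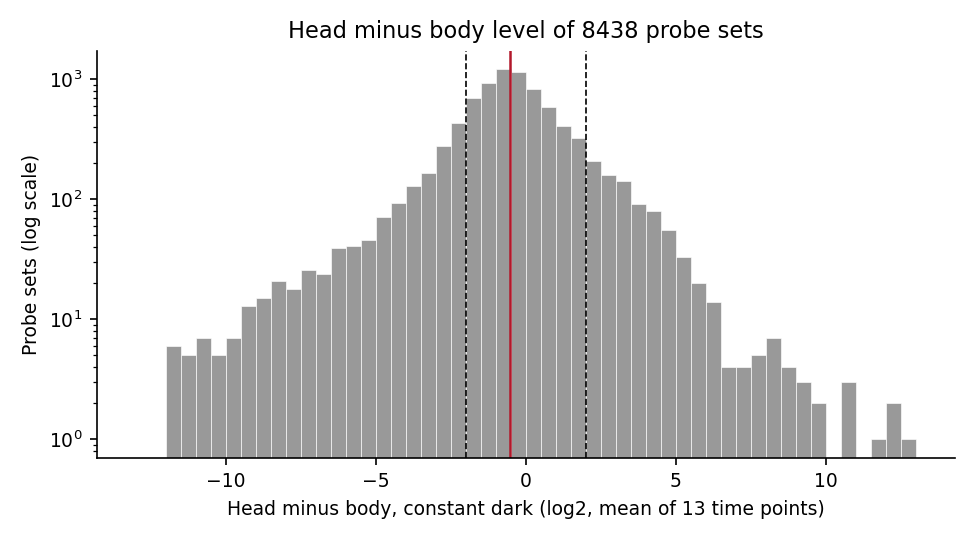
Head minus body level of 8438 probe sets, mean of 13 times (horizontal axis, log2), with the number of probe sets on a log scale. The red line is the median, -0.52 as deposited, and the dashed lines mark 4-fold. Both tails pass 4-fold, with the lower tail the fuller one before quantile normalization.

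Among the largest differences, Ag.2R.268.0_CDS_s_at had a lowest, median and highest value of 15.32, 15.47 and 15.57 in heads, against 2.25, 2.27 and 7.87 in bodies. Its dark body values stayed near the floor except at CT0, where the 7.87 was recorded. Its head level lay 11.67 log2 units above the body cutoff of 3.78, which bodies exceeded at CT0. The head minus body difference passed the test (adjusted p = 7.22e-14, limma). Ag.2L.3.0_CDS_a_at had 15.20, 15.37 and 15.48 in heads, against 2.74, 2.96 and 4.00 in bodies. Its highest body value again came at CT0, and its head level lay 11.58 units above the cutoff. On the lower side, Ag.3R.2446.0_CDS_s_at had 1.98, 2.01 and 2.02 in heads, against 13.78, 14 and 14.28 in bodies. Its tissues did not overlap, and the head level was at least 10.25 units lower. Ag.3R.1.0_CDS_a_at had 2.44, 2.47 and 2.75 in heads, against 14.28, 14.44 and 14.69 in bodies, and was at least 10.71 units lower in heads. For Ag.3R.2446.0_CDS_s_at the light cycle gave another level in bodies: it averaged 2.00 in heads and 2.64 in bodies there, where bodies were under the cutoff at 12 of 13 times with a highest value of 9.92, and the head minus body difference differed between the regimes (adjusted p = 3.46e-15, limma). Ag.3R.1.0_CDS_a_at averaged 2.49 in heads and 14.07 in bodies under the light cycle (adjusted p for the regimes = 5.55e-05, limma). For Ag.2R.268.0_CDS_s_at, light cycle bodies reached 12.34 and were under the cutoff at 6 of 13 times. Its head minus body difference was 9.12 there and 12.73 in the dark (adjusted p for the regimes = 0.0132, limma). For Ag.2L.3.0_CDS_a_at, light cycle bodies reached 9.304 and were under the cutoff at 7 of 13 times. Its difference was 10.43 there and 12.32 in the dark (adjusted p for the regimes = 0.0189, limma).

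The lowest head value lay above the highest body value for 1819 probe sets (21.6%), and the highest head value lay below the lowest body value for 3725 (44.1%). Of the 838 at least 4-fold higher in heads, 584 were under the cutoff in bodies, and of the 1440 lower, 711 were under the cutoff in heads. Different probe sets of 1 transcript cluster usually agreed in sign: of 787 clusters with at least 2 called probe sets, 658 ran in 1 direction. In 2 clusters, a probe set was at least 4-fold higher and another at least 4-fold lower. In cluster 3L.871, Ag.3L.871.0_CDS_s_at averaged 5.49 in heads and 2.77 in bodies, while Ag.3L.871.1_at averaged 7.44 in heads and 9.51 in bodies. These 2 clusters were picked out after their values were seen.

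The X chromosome held another mix of level differences than the other arms. Of its 676 probe sets, 14.6% were at least 4-fold higher and 11.5% at least 4-fold lower in heads, against 9.52% and 17.5% of the 7762 others, with medians of -0.29 and -0.54. After quantile normalization the shares were 17.2% and 7.25% on X, against 12.2% and 12.9% elsewhere. Under the light cycle they were 14.9% and 12.4% on X, against 11.1% and 15.8% elsewhere. These shares are a description, with no test.

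More probe sets were called rhythmic in heads than in bodies, with similar fitted ranges. A rhythm was a 24 h cosine fitted to the 13 time points, called where limma's F-test of its cosine and sine terms passed the Benjamini-Hochberg threshold of 0.05. That gave 641 probe sets in heads (8.92%) and 490 in bodies (6.69%). The median fitted peak over trough was 1.84-fold in heads (quartiles 1.57 and 2.52) and 1.85-fold in bodies (quartiles 1.56 and 2.65). Without replicate 1 the heads gave 339 and without CT12 395, and without replicate 1 or 2 the bodies gave 275 and 267. Leaving out any 1 replicate or time gave 339 to 684 in heads and 267 to 530 in bodies, ranges that overlap. The difference in counts between the tissues was not tested. When ranks over the 13 times were fitted, 0 passed in heads and 0 in bodies, with 2073 and 1718 at an unadjusted p under 0.05. At least 2-fold were 268 in heads and 208 in bodies, and at least 4-fold 61 in heads and 56 in bodies. Over the 6075 probe sets kept in both, rhythmic or not, the median range was 1.23-fold in heads and 1.18-fold in bodies, and amplitude, the fitted height of the peak above the mean on the log2 scale, was larger in heads for 60.8%.

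Peak hours clustered differently in the tissues. In 4 h windows centred on CT0, CT4, CT8, CT12, CT16 and CT20, heads held 184, 64, 68, 142, 59 and 124 peaks. Bodies held 112, 76, 31, 76, 101 and 94. The fullest head windows were those at CT0 and CT12, and the fullest body windows those at CT0 and CT16. Subjective day, CT0 to CT12, held 43.2% of head peaks and 36.9% of body peaks. The difference between these distributions was not tested.

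**Figure D2:**
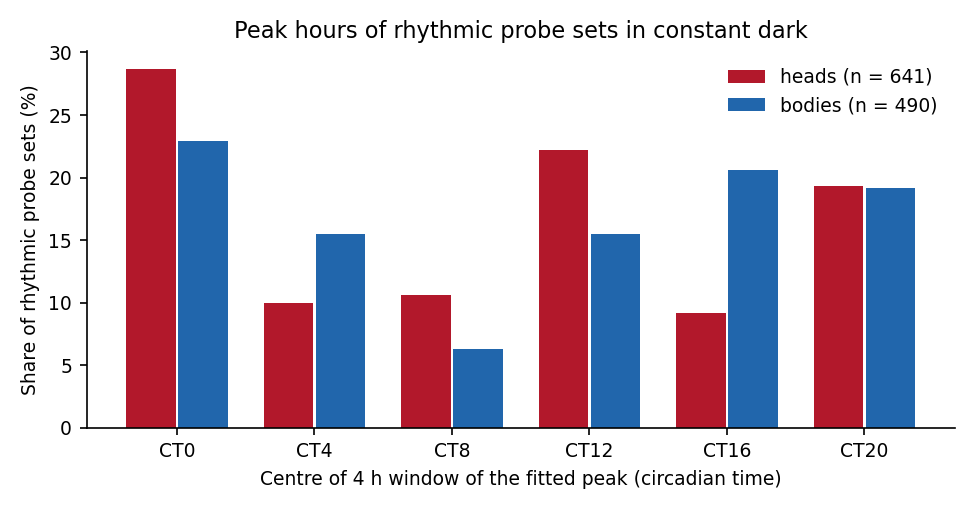
Share of rhythmic probe sets (vertical axis, percent) by the 4 h window holding their fitted peak in constant dark, heads in red (n = 641) and bodies in blue (n = 490). The CT12 window holds 142 head peaks against 76 body peaks, and the CT16 window 59 head peaks against 101 body peaks.

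Most probe sets kept in both tissues and called in 1 of them did not pass the test of the difference itself. Of 444 probe sets kept in both tissues and called in heads alone, 103 (23.2%) passed the test of the difference in rhythm, and 122 had an unadjusted p under 0.05 in bodies. Their median range was 1.69-fold in heads and 1.21-fold in bodies, and 297 had peaks within 4 h. Of 242 called in bodies alone, 33 (13.6%) passed the difference test and 81 had an unadjusted p under 0.05 in heads. Their median range was 1.30-fold in heads and 1.68-fold in bodies.

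Rhythmic in both tissues were 123 probe sets, and these peaked earlier in heads. The median head minus body peak was -1.20 h (quartiles -2.65 and -0.12), and heads peaked first for 94 of 123. With replicate 1 alone the median was -1.33 h (96 of 123 earlier) and with replicate 2 alone -1.29 h (91 of 123). The gap between peaks was under 2 h for 71 and over 6 h for 6. The head over body amplitude had a median of 1.26, and was larger in heads for 89. No test was run over these members, which were chosen by the rhythms themselves. All windows had a median on the early side: -0.74 h for the 34 with head peaks around CT0, -1.29 h for the 43 around CT12 and -1.72 h for the 18 around CT16.

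**Figure D3:**
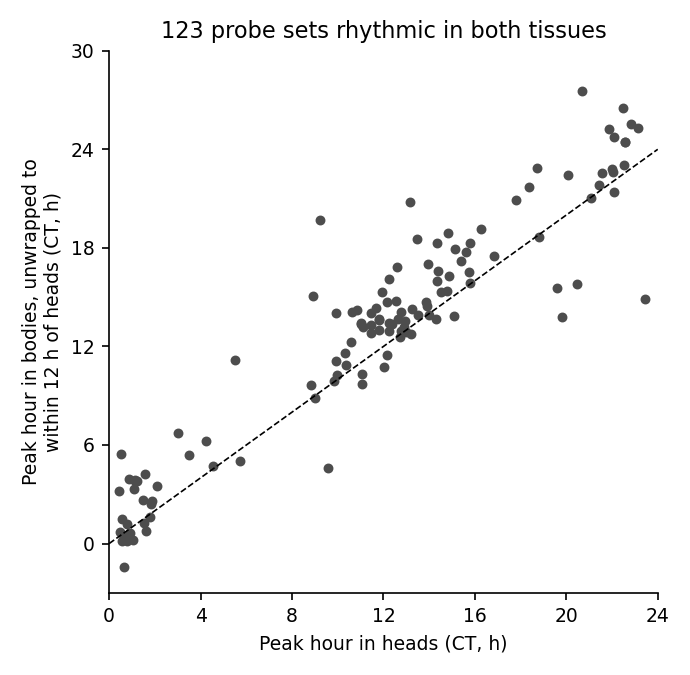
Peak hour in heads (horizontal axis, h) against peak hour in bodies, unwrapped to within 12 h of heads (vertical axis, h), for 123 probe sets rhythmic in both tissues. Points above the dashed line of equal hours peaked earlier in heads, as 94 of the 123 did.

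Ag.2R.1137.0_CDS_at swung alike in both tissues. In heads it averaged 10.14 ± 0.32 (SD, n = 2 times) at hour 4 and 6.73 ± 0.49 at hour 12, and in bodies 7.74 ± 0.38 at hour 4 and 4.39 ± 0.19 at hour 12. Its fitted range was 8.62-fold in heads and 10.5-fold in bodies, peaking at 0.56 h in heads and 0.15 h in bodies (limma's adjusted p for the difference was 0.75). Its body call was lost without CT12 (adjusted p = 0.056). Ag.2L.393.0_CDS_a_at ranged 29.7-fold in heads and 7.53-fold in bodies, peaking at 11.8 h in heads and 13.7 h in bodies. That difference passed the test (adjusted p = 0.00674, limma). In heads it averaged 6.54 ± 1.41 at hour 0 and 11.39 ± 0.28 at hour 12, and in bodies 10.64 ± 0.27 at hour 0 and 13.18 ± 0.03 at hour 12, so bodies were higher at each of these hours.

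The farthest-apart peaks belonged to Ag.3L.362.2_at and Ag.3R.713.0_CDS_s_at. Ag.3L.362.2_at averaged 8.48 ± 0.14 at hour 12 and 7.53 ± 0.11 at hour 20 in heads, and in bodies 9.16 ± 0.18 at hour 12 and 9.93 ± 0.05 at hour 20. It peaked at 9.22 h in heads and at 19.7 h in bodies (difference adjusted p = 0.000613, limma), though its body rhythm alone missed the threshold without replicate 1 (adjusted p = 0.099). Ag.3R.713.0_CDS_s_at averaged 9.21 ± 0.30 at hour 0 and 7.15 ± 0.46 at hour 12 in heads, and in bodies 12.42 ± 0.10 at hour 0 and 13.16 ± 0.23 at hour 12. Its fitted peaks were at 23.4 h in heads and 14.9 h in bodies (adjusted p = 0.00012, limma). Under the light cycle they were at 11.4 h in heads, with a fitted range of 1.55-fold, and at 16.2 h in bodies. The head minus body rhythm of Ag.3R.713.0_CDS_s_at differed between the regimes (adjusted p = 1.95e-05, limma). That of Ag.3L.362.2_at did not (adjusted p = 0.199, limma), with light cycle peaks at 7.06 h in heads and 22.6 h in bodies.

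A direct test of the head minus body rhythm called 344 of 8438 probe sets (4.08%), 195 without replicate 1 and 194 without replicate 2. With ranks, 0 passed and 1373 had an unadjusted p under 0.05. Amplitude was larger in heads for 208 and in bodies for 136. Of the 202 kept in both tissues, 157 had the larger amplitude in heads and 45 in bodies. Of the 344, 191 were rhythmic in heads, 158 in bodies, 39 in both and 34 in neither. Larger amplitude went with the higher level for 68.6% of the 344, against 51.5% of all kept, and for 49.5% of the 202, against 42.3% of those kept in both. For probe sets kept through 1 tissue alone, the other tissue averaged under its cutoff. The 68.6% includes them, so part of it follows from the filter. Among the 39, heads peaked a median of 2.65 h earlier than bodies (quartiles -4.00 and -1.31), and the median amplitude ratio of heads over bodies was 1.94. The 39 were picked by the difference test itself, which favours wide gaps. Over all 123 rhythmic in both, those medians were -1.20 h (head minus body) and 1.26.

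The largest rhythm difference with the larger amplitude in heads was that of Ag.3R.2620.0_at. Its lowest, median and highest values were 3.03, 7.73 and 11.17 in heads, against 2.68, 2.71 and 2.77 in bodies. Heads stood near the body floor at hours 8 and 12, at 3.16 ± 0.15 and 3.21 ± 0.25 (SD, n = 2), and far above it at hour 20, at 11.02 ± 0.21. Since 5 of the 13 head values lay under the cutoff, the swing is a lower bound: the highest value was at least 172-fold above the cutoff. The fitted head peak was at 22.8 h (difference adjusted p = 0.000558, limma). Ag.2R.607.0_CDS_a_at followed with a fitted range of 26.4-fold in heads, peaking at 22.5 h (adjusted p = 0.000159, limma), and was under the cutoff in bodies at all 13 times, with 4.07, 6.67 and 8.93 in heads, against 2.39, 3.24 and 3.70 in bodies. The tissues did not overlap at any time.

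Among those with the larger amplitude in bodies, 2 had the largest differences. Ag.2R.93.0_CDS_at had 2.53, 3.99 and 4.85 in heads, against 3.52, 6.55 and 8.52 in bodies. Heads were under the cutoff at 6 of 13 times and bodies at 2, so both swings are lower bounds, at least 2.15-fold in heads and at least 26.8-fold in bodies against the cutoffs. The fitted peaks were at 12.6 h in heads and 16.8 h in bodies (difference adjusted p = 0.000745, limma). At hour 16 it averaged 4.34 ± 0.18 in heads and 8.41 ± 0.08 in bodies (SD, n = 2). Under the light cycle the larger fitted range of Ag.2R.93.0_CDS_at was in heads, 21.1-fold against 7.54-fold in bodies. Heads were under the cutoff at 3 of 13 times there and bodies at 4. Its head minus body rhythm differed between the regimes (adjusted p = 0.0268, limma). Ag.2R.117.0_CDS_at was under the cutoff in heads at all 13 times, so no head rhythm can be read and it was kept through bodies alone. Its lowest, median and highest values were 2.79, 2.87 and 3.0 in heads, against 3.08, 5.29 and 7.44 in bodies. Bodies were under the cutoff at 3 times, so their swing was at least 12.7-fold, with a fitted peak at 15.5 h (difference adjusted p = 0.000228, limma).

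**Figure D4:**
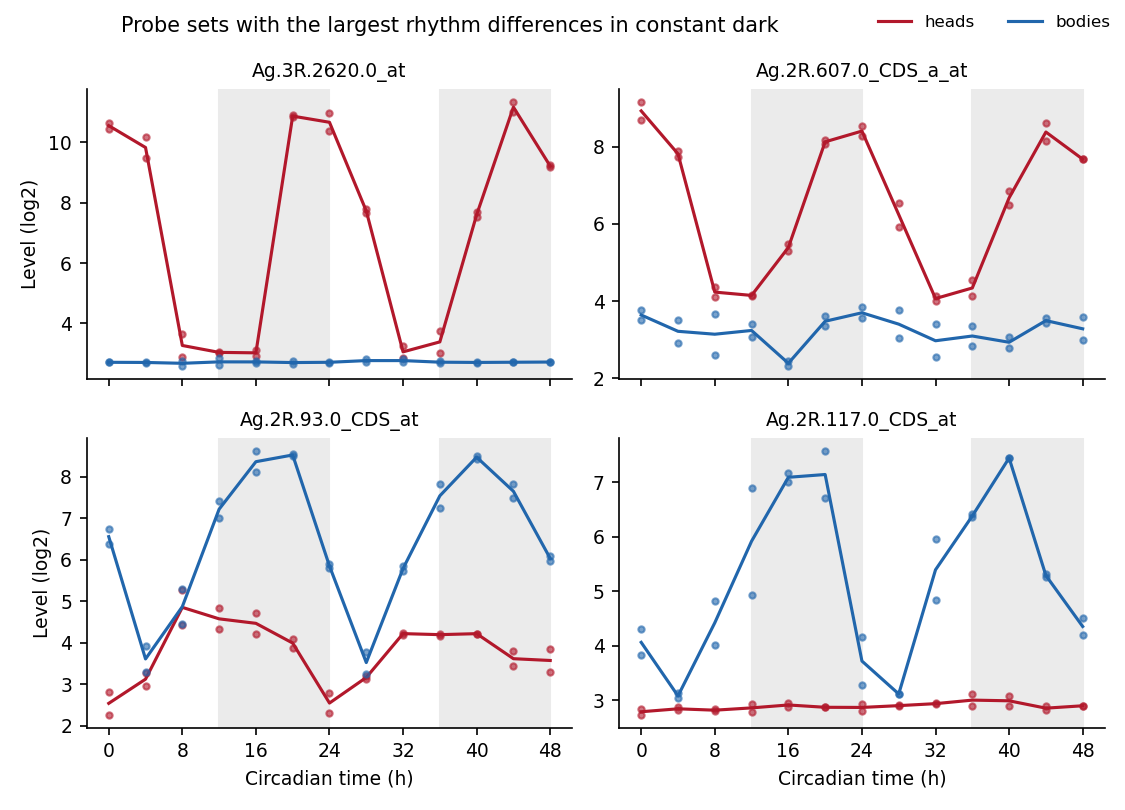
Levels (vertical axis, log2) against circadian time (horizontal axis, h) of the 4 probe sets with the largest rhythm differences, heads in red and bodies in blue; points are the 2 arrays of a time, lines their means, and shading is subjective night. The top 2 swing in heads (at least 172-fold, and 26.4-fold) with bodies under the cutoff, and the bottom 2 swing mainly in bodies (at least 26.8-fold and 12.7-fold).

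A few probe sets changed which tissue was higher within the day. Counting hourly mean differences of at least 1.5-fold in each direction, 18 of the 8438 (0.213%) and 7 of the 344 (2.03%) did so. Quantile normalization gave 24 and 11, and 3 of the 344 did so under both scalings. These probe sets were singled out after their values were seen. Ag.UNKN.314.0_CDS_at averaged 8.31 ± 0.33 in heads and 7.12 ± 0.15 in bodies at hour 16, and 4.12 ± 0.80 in heads and 5.58 ± 1.01 in bodies at hour 8. Ag.2L.643.1_CDS_a_at averaged 8.75 ± 0.16 in heads and 7.74 ± 0.23 in bodies at hour 0, and 6.85 ± 1.01 in heads and 8.40 ± 0.10 in bodies at hour 8. Their rhythm differences passed the test (adjusted p = 0.00549 and 0.00124, limma).

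In the dark the median period was under 24 h in both tissues, and lower in heads. Fitting each rhythmic probe set with periods of 18 to 30 h, the best period had a median of 22.4 h in heads (quartiles 21.8 and 23.2) and 23.4 h in bodies (quartiles 22.6 and 24.6). Periods were under 24 h for 86.6% of 641 head probe sets and 62.9% of 490 body probe sets. The light cycle arms gave 24.2 h in heads and 24.0 h in bodies. Replicates alone gave 22.4 and 22.6 h in heads, against 23.2 and 23.6 h in bodies, and leaving out any 1 time gave 22.2 to 22.6 h in heads, against 23.2 to 23.6 h in bodies. These ranges did not overlap. The fits share arrays and use probe sets called on all times, so the ranges do not measure the error of the gap. Restricted to the 123 rhythmic in both, medians were 22.4 h in heads and 23.2 h in bodies, with a paired head minus body median of -0.6 h and the head period shorter for 85, equal for 6 and longer for 32.

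Choosing the probe sets on the light cycle arrays alone, with at least 2-fold rhythms in both tissues there, gave the same order. For those 198 the dark medians were 22.2 h in heads and 22.8 h in bodies, with a paired head minus body median that was again -0.6 h. The head period was shorter for 122, equal for 8 and longer for 68. With each tissue's own light cycle list, medians were 22.2 h in heads and 22.6 h in bodies.

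Peaks came earlier on the second day in both tissues. On day 2 (CT24 to CT44) against day 1 (CT0 to CT20), rhythmic probe sets peaked a median of 1.60 h earlier in heads (quartiles -2.38 and -0.71, 546 of 641 earlier) and 0.95 h earlier in bodies (quartiles -1.94 and 0.30, 343 of 490 earlier). Replicates alone gave -1.62 and -1.67 h in heads, against -1.40 and -0.77 h in bodies, so that the 2 replicates lay farther apart in bodies. In the light cycle arms the shift was 0.06 h in heads and -0.44 h in bodies. The amplitude of day 2 over day 1 had a median of 0.94 in heads, larger on day 2 for 251 of 641, and 0.90 in bodies, larger for 174 of 490, against 1.01 in heads and 0.92 in bodies under the light cycle. Periods and shifts are descriptions over probe sets that share arrays, with no test.

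**Figure D5:**
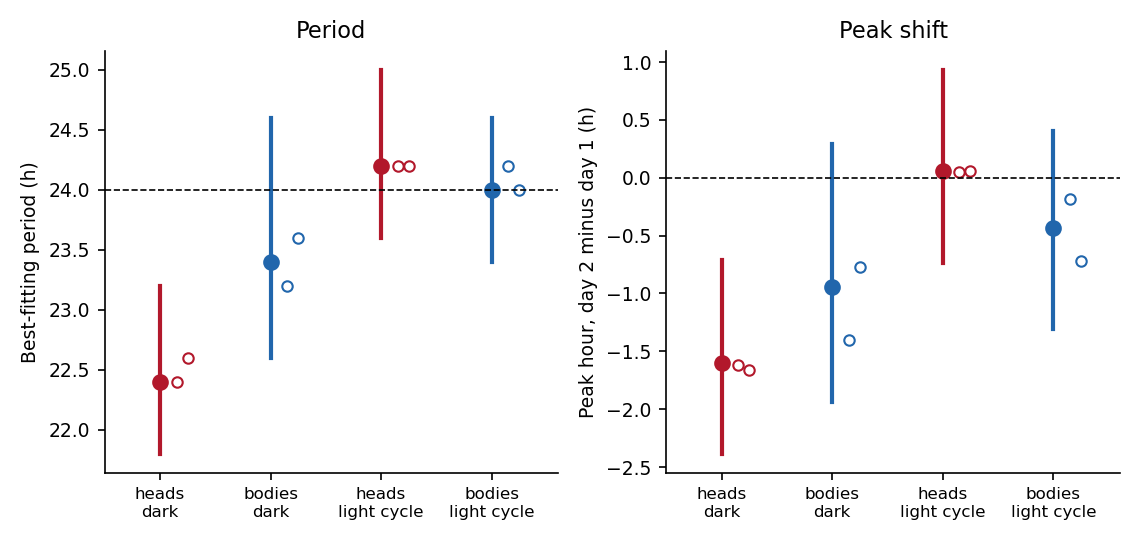
Left, median best-fitting period (vertical axis, h), and right, median peak hour of day 2 minus day 1 (h), for rhythmic probe sets of each tissue in constant dark and in the light cycle. Filled points are medians of the mean of 2 arrays, bars quartiles over probe sets, open points the 2 replicates alone. Dark heads lie lowest in both panels, at 22.4 h and -1.60 h.

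Few changes between the days passed a test. Over 6 paired hours, limma called 0 of 7188 probe sets in heads for level (0%), with 1354 at an unadjusted p under 0.05 and a lowest adjusted p of 0.0876. When the arrays were fitted 1 by 1, 304 were called. In bodies 2 of 7325 (0.0273%) were called, and the direct test of the tissue difference called 1 of 8438 (0.0119%). No change of rhythm was called in heads (0%, 562 at an unadjusted p under 0.05, and 73 called with arrays fitted 1 by 1). Nor was any in bodies (0%, 603 unadjusted, and 17 with arrays fitted 1 by 1). The test of the tissue difference in rhythm change called 1 (0.0119%). Head levels were lower on day 2 for 71.2% of probe sets, with a median change of -0.085, which quantile normalization took to -0.00018. In bodies the median was 0.0056.

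The called probe sets were few enough to name. Ag.2L.680.1_a_at averaged 4.89 ± 1.26 on day 2 and 3.52 ± 1.04 on day 1 in bodies (SD, n = 6 times), and the change passed the test (adjusted p = 0.017, limma). Its body values were under the cutoff at 5 of 13 times, so the size of the change has no exact value. Heads, at 2.07 to 2.15, were under the cutoff throughout, and the test of the tissue difference (adjusted p = 0.0363, limma) therefore sets bodies against background. Ag.2R.424.0_CDS_a_at averaged 11.31 ± 0.37 on day 2 and 10.25 ± 0.34 on day 1 in bodies, a change of 1.07 (adjusted p = 0.027, limma), against 8.63 ± 1.26 on day 2 and 8.39 ± 0.54 on day 1 in heads. Its tissue difference did not pass (adjusted p = 0.274). Ag.3L.1074.0_CDS_at carried the rhythm change (adjusted p = 0.00627): heads stood at 3.39 to 4.74 between CT0 and CT32 and at 6.76 to 7.51 from CT36 to CT48, a step rather than a daily cycle, against 3.01 to 4.07 in bodies, with 5 head values and 12 body values of 13 under the cutoffs. Each of these calls was lost without replicate 1, without replicate 2 and without the CT20 and CT44 pair, with adjusted p-values of 0.0623 to 0.578 (limma).

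Compared with the light cycle, 1569 probe sets (18.6%) differed in rhythm between head and body there, and 266 of the 344 were among them, 77.3% of the dark list and 17.0% of the light list. Of those 266, 248 had difference peaks within 4 h in the 2 regimes, and the dark over light ratio of difference amplitudes had a median of 0.87. A direct test of dark against light called 206 probe sets (2.44%), of which 34 had the larger difference in the dark and 172 in light. Without replicate 1 it called 123 and without replicate 2 129. For level, 6534 (77.4%) differed between regimes. The 2 regimes are separate sets of arrays, and regime and any batch that goes with it cannot be told apart.

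In the dark, Ag.2R.117.0_CDS_at, described above, swung at least 12.7-fold in bodies, while light cycle bodies were under the cutoff at all 13 times, with a highest value of 3.42 (adjusted p = 2.43e-05, limma). Ag.2L.223.0_CDS_at ranged 7.13-fold in dark bodies and 1.78-fold in light cycle bodies (adjusted p = 0.00293, limma), with 6.22, 8.42 and 10.14 in dark bodies. Its heads stayed at 2.35 to 2.49. The reverse held for Ag.3R.29.0_CDS_at, which was under the cutoff in dark bodies at all 13 times, at 2.32 to 2.74, and swung at least 172-fold in light cycle bodies, with a highest value of 11.20 and 5 of 13 times under the cutoff (adjusted p = 1.95e-05, limma). Ag.3R.20.0_CDS_at ranged 1.53-fold in dark bodies, at 4.10 to 5.21, and 471-fold in light cycle bodies (adjusted p = 0.000477, limma). Its heads stayed at 2.36 to 2.43 in the dark. For every probe set named in this paragraph, heads were under the cutoff at all 13 times in both regimes. Each was kept through bodies alone, so these tests in effect set dark bodies against light cycle bodies.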

How the data were processed

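RNA from heads and bodies was measured on Affymetrix arrays. The deposited log2 values were made by the authors with GCRMA, per the submitters' processing notes; its version is not given in the sources used here. Members, probe sets and comparisons were chosen with earlier results of these data known. The 2 arrays of a time were averaged, and 24 h cosines were fitted with limma 3.58.1 in R 4.3.3, with head minus body differences taken at each of 13 times and day 2 minus day 1 differences over 6 hours. P-values were adjusted by Benjamini-Hochberg over all probe sets kept, with a threshold of 0.05. The filter took its limit from the 4502 probe sets of P. falciparum (95th percentile), applied to the mean over arrays of both regimes. Periods were scanned over 18 to 30 h in steps of 0.2 h, as an addition made after the data were seen. Fits of level, rhythm difference, head rhythm, day level change and dark against light, and the period scan, were tested on simulated data. The body rhythm, day rhythm, rank and array-wise fits were not. Named probe sets are at most 2 in each direction per comparison, by largest difference among calls with the same sign, or difference peaks within 4 h, in each replicate. Of 22761 probe sets in the table, 1231 with other names were not used and 144 array controls entered no fit across probe sets. The gene lists fixed for the study (clock, photoreception, chemosensation, digestion and others) could not be assigned, since 0 names matched the 15165 genes of the table at hand. Alternatives covered the filter, scaling, period, ranks, array-wise fits, the choice of days and leaving out replicates and times.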

Additional observations from a re-analysis of the deposited data

Results flagged for a closer look

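The difference in rhythm between heads and bodies passed a direct test for 344 probe sets in constant dark. The day 2 minus day 1 level change differed between the tissues for 1 probe set, Ag.2L.680.1_a_at, and the day 2 minus day 1 rhythm change for 1, Ag.3L.1074.0_CDS_at. The head minus body rhythm differed between constant dark and the light cycle for 206 probe sets. The report uses the 4502 probe sets for P. falciparum for its filter and as a floor for the level test. Among them, 5 differed at least 4-fold in level between heads and bodies in these mosquitoes that had taken no blood. Of these probe sets 2036 (45.2%) passed the level test and 47 reached 1.5-fold, while 0 passed the rhythm difference test by limma and 12 (0.267%) had an unadjusted p under 0.05.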

How the results depend on the processing

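Of 431 values for named probe sets under the alternatives, 404 kept their side of the threshold and 27 lost it. Rhythm values were taken along the peak direction of the main fit, and no level, day change or rhythm value turned its sign. Where probe sets were named by the same sign, or difference peaks within 4 h, in each replicate, this follows from the choice when a replicate is left out. With no filter, calls were 15089 for level, 211 for rhythm difference, 409 for rhythm in heads, 307 in bodies, and 0 for the day level change in bodies, for its tissue difference and for the tissue difference in day rhythm change. Requiring both tissues gave 188 for rhythm difference and 82 for dark against light. Leaving out 1 replicate, time or pair gave 194 to 364 for rhythm difference, 339 to 684 in heads (395 without CT12, 339 without replicate 1), 267 to 530 in bodies, and 0 to 1 for day rhythm in heads; dark against light, run only without a replicate, gave 123 without replicate 1 and 129 without replicate 2; the day level change in bodies and both day differences between tissues fell to 0. It gave periods of 22.2 to 22.6 h in heads, peak shifts of -1.73 to -1.62 h in heads and -1.40 to -0.77 h in bodies, and an amplitude ratio of 0.87 to 0.90 in bodies. Fits at 25 h called 398 and at 22 h, added after the data were seen, 982 in heads. Ranks over the 13 times called 0 for rhythm difference, heads and bodies by limma, with 1373, 2073 and 1718 at an unadjusted p under 0.05. Days set as CT4 to CT24 and CT28 to CT48 gave 0 for the tissue difference in rhythm change. Probe sets chosen on the light cycle gave median periods of 22.2 h (heads) and 22.6 h (bodies). Same-numbered head and body arrays deviated together in 2 of 13 times only (correlations of -0.31 to 0.16 between replicate differences), so the numbers were not taken as pairs. Fitted array by array with the time as a random block, the replicate block gave 629 for rhythm difference (638 with no block), 987 in heads (997) and 780 in bodies (798); for day level 239 in heads (304), 38 in bodies (68) and 55 for the tissue difference (77); and for day rhythm 51 in heads (73), 12 in bodies (17) and 3 for the tissue difference (8). The causes were not tested. Signal near the background limits every level under the cutoffs.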
